A study of Homo sapiens with 6 samples.

Results

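The caspases are the family of cysteine proteases that cut their targets after aspartate, and the genes described here were 8 of them by name, CASP1, CASP2, CASP4, CASP5, CASP6, CASP8, CASP9 and CASP10. Of these, 7 had a row among the 12982 genes of the table, and CASP1 was not analysed here. The members were selected on their values in the one contrast of these data, with CASP5 read only after MPM-1, so their levels and differences are given as a description. No p is given for them, and the calls of the fit over all genes are counted beside their share among all genes and support nothing. RNA sequencing was carried out in SW480, an established human colorectal adenocarcinoma line, labelled WT for genotype. Of the 6 libraries, 3 came from cells given DMSO, the solvent control, and 3 from cells given MPM-1, a fluorescent small molecule that accumulates in mitochondria and that the labels call WT4. Both treatments lasted 24 h, and the dose of MPM-1 for the sequencing is not given in the sources used here. The study treated these cells to learn which transcripts accompany the loss of proliferation and the apoptosis it had measured. The labels do not say that libraries of one treatment came from separate cultures, so p-values measure only the spread between these samples, which may be technical.

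Caspases are made as inactive zymogens and are grouped by what switches them on. The inflammatory caspases CASP1, CASP4 and CASP5 are activated on inflammasomes or directly by cytosolic lipopolysaccharide, and they open gasdermin D pores in a lytic death called pyroptosis. Among the initiators, CASP8 and CASP10 are activated through FADD below death receptors, CASP9 on the Apaf-1 apoptosome after cytochrome c leaves mitochondria, and CASP2 on the PIDDosome. Effectors such as CASP6 are cut by initiators and dismantle the cell. Colonic epithelium is known for noncanonical inflammasome signalling through CASP4 and CASP5. Since activation is by cleavage, a transcript level gives the amount of message and not of active enzyme.

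Depth ran from 32095456 to 40269820 counts in the DMSO libraries and from 31733667 to 35403841 in the MPM-1 libraries. In these libraries 3 counts, taken here as the limit for a count of 0, corresponded to 0.0695 to 0.0985 CPM. CPM are counts scaled by TMM to a common library size, and FPKM, the authors' values per length and depth, are used to compare one gene with another. Such limits cover counting error only. All 10 epithelial markers of the list had a row, with a summed level of 8370 to 9750 CPM in DMSO libraries and 12200 to 13800 CPM in MPM-1 libraries, a sum carried by the keratins KRT8, KRT18 and KRT19. The intestinal markers went the other way, with CDX2 at 82.5 and 17.9 CPM (edgeR, adjusted p = 5.29e-06), KRT20 at 11.1 and 2.7 CPM (adjusted p = 3.26e-05), and VIL1, CDX1 and LGR5 also lower after MPM-1. Of the remaining epithelial markers, CDH1 averaged 120 CPM in DMSO and 211 CPM in MPM-1 libraries (edgeR, adjusted p = 0.000124). EPCAM averaged 676 CPM in both groups. Of 9 leukocyte markers only CD14 and CD68 had a row, with a summed level of 67.2 to 94.6 CPM in DMSO libraries and 141 to 155 CPM in MPM-1 libraries, and the defining marker PTPRC was among the 7 not analysed here. CD14 averaged 9.38 CPM in DMSO and 3.7 CPM in MPM-1 libraries (edgeR, adjusted p = 0.00315), and CD68, a lysosomal protein that epithelial cells also make, 68.3 and 145 CPM (adjusted p = 0.000165). Of 6 fibroblast markers, COL1A1 and PDGFRB had a row and summed to 4.79 to 5.47 CPM against 2 to 2.89 CPM, and all 4 endothelial markers were not analysed here. The part of other cells in the results below was not tested.

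The member whose libraries differed most in kind was CASP5 (ENSG00000137757; GRCh38, chr11:104994235-105023168, minus strand), the lipopolysaccharide-binding inflammatory caspase. The 250 bases before its RefSeq start (GRCh38.p14, chr11:105023169-105023418, minus strand) are shown because this was the member read in only one group, and capitals mark letters that match a searched motif.
CASP5 upstream window: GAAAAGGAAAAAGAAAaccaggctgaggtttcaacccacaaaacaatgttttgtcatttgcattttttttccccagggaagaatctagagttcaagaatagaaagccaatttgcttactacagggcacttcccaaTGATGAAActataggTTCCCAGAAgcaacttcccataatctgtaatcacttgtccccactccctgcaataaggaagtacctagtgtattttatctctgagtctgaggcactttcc
The window was 40.4% G or C and held 0 CpG. The interferon response letters (GAAA, any 2 bases, then GAAA again) matched at -250 and at -244 from the start, where the 2 matches overlap, and 3.02% of 34943 RefSeq promoter windows of the same length hold these letters on either strand. The letters TGATGNAA, a C/EBP-ATF composite of the integrated stress response, matched at -115 and are in 3.15% of windows. The gamma-activated site letters TTCNNNGAA matched at -100 and are in 6.56% of windows. The other motifs searched, on both strands as these were, are not in the CASP5 window. They were TGACNNNGC, bound by NRF2 under oxidative stress (10.9% of windows), the cyclic AMP response letters TGACGTCA (1.63%), the cell cycle letters TTTNGCGC of E2F (1.49%) and, by name alone, the kappaB motif (9.95%). A motif of AP-1, which spells TGA, any base and TCA, is in 6.59% of windows. The SP1 box GGGCGG, common in promoters rich in CpG, is in 42.5% of windows. The core promoter letters TATAAA, known as the TATA box, are in 10.8% of windows. The letters CCGGAA of the ETS family are in 14.5% of windows. In this window only the interferon letters overlapped another match, and a match is a match of letters, not a site.

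CASP5 had 0 counts in each DMSO library and 67, 42 and 85 counts in MPM-1 replicates 1, 2 and 3. These counts carry 95% Poisson intervals of 51.9 to 85.1, 30.3 to 56.8 and 67.9 to 105, and the same interval of a count of 0 reaches 3.69. All 3 MPM-1 libraries therefore stood above all 3 DMSO libraries, and MPM-1 replicate 2 was the lowest of them. On the CPM scale the MPM-1 libraries read 2.2, 1.37 and 2.53, with a mean of 2.03 ± 0.601 (SD, n = 3). Set against 3 counts in each DMSO library, the mean was 25.9-fold higher after MPM-1. That fold was at least 22.7 whichever MPM-1 library was left out, and the lowest MPM-1 library was 15 times the highest DMSO limit of 3 counts. Against 3.69 counts, the upper end of the interval, all of these folds would be smaller. CASP5 was not detectable in the DMSO libraries at this depth, which is not the same as being silent there. In these bulk libraries, fewer cells that express a gene and less RNA per cell cannot be told apart.

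Even after MPM-1, CASP5 was a rare transcript. Its FPKM was 1.32, 0.919 and 1.55, a mean of 1.26 ± 0.319 (SD, n = 3), which lay at percentile 17.5 of all genes of the table in MPM-1 libraries. Its neighbour CASP4 was 19 times as abundant by mean FPKM in the same libraries. CASP5 made up 2.94%, 1.67% and 3.16% of the summed FPKM of the 7 measured members in MPM-1 replicates 1, 2 and 3.

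CASP4 (ENSG00000196954; chr11:104942866-104969436, minus strand), the broadly expressed sensor of cytosolic lipopolysaccharide, was the most abundant member in both groups by mean FPKM. It read 32.4, 36 and 43.8 CPM in DMSO libraries and 45.6, 60.9 and 53.4 CPM in MPM-1 libraries. The groups did not overlap, although the gap between DMSO replicate 3 and MPM-1 replicate 1 was small. The means were 37.4 ± 5.81 and 53.3 ± 7.66 CPM (SD, n = 3 each), 42.5% higher after MPM-1, and the log2 fold change was 0.51 (SE 0.13), or 0.31 in limma on log2(FPKM + 1). On the FPKM scale the groups met, with 22.5 in DMSO replicate 3 and 22.5 in MPM-1 replicate 1, and the means were 19.3 ± 3.34 and 24 ± 2.29. CASP4 supplied 33.2%, 34% and 39.8% of the summed FPKM of the 7 measured members in DMSO libraries and 50.3%, 48.5% and 46.5% in MPM-1 libraries.

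**Figure D1:**
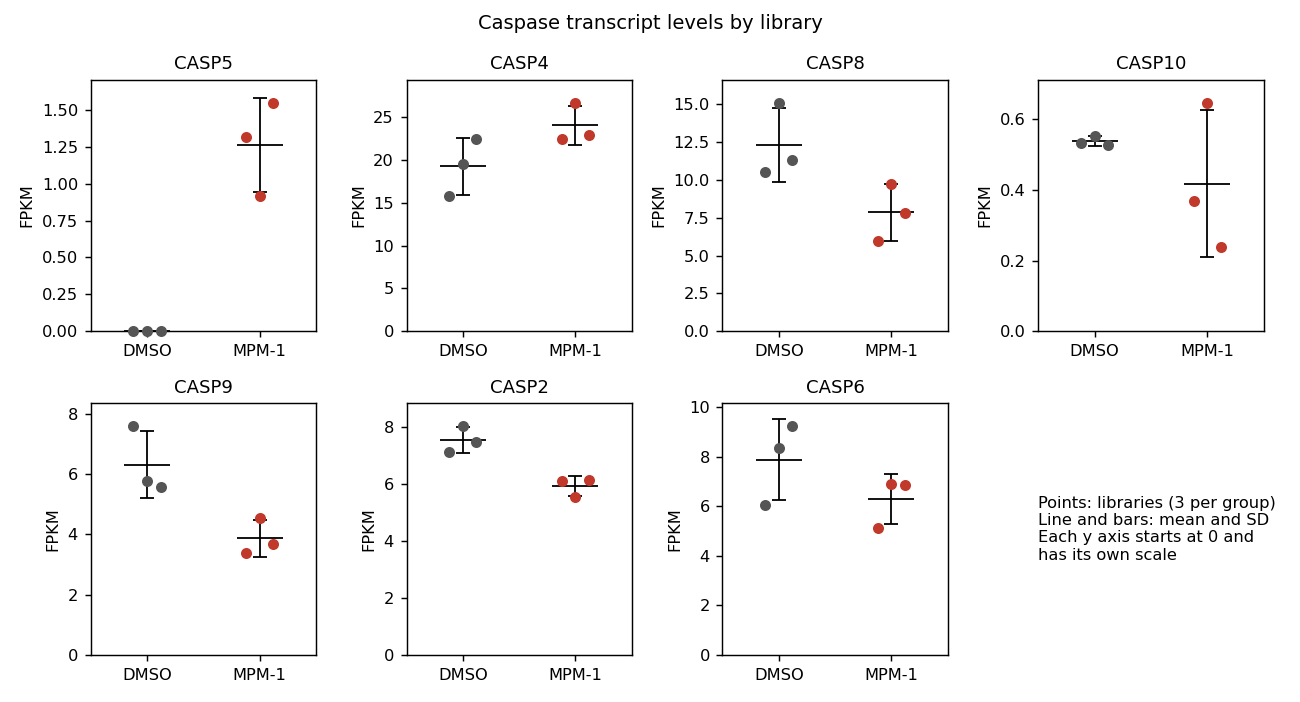
FPKM of the 7 measured members in each library (3 DMSO in grey, 3 MPM-1 in red), with the mean as a line and the SD as bars, each panel on its own scale from 0. CASP5 is at 0 in the DMSO libraries and between 0.919 and 1.55 in the MPM-1 libraries, while the CASP10 points of MPM-1 lie on both sides of the DMSO points.

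The initiators had log2 fold changes below 0, on the other side from CASP4 and CASP5. CASP8 (ENSG00000064012; chr2:201233443-201287711, plus strand), the protease that starts death receptor apoptosis and holds back necroptosis, read 27.5, 36.3 and 29.5 CPM in DMSO libraries and 15, 24.9 and 21.9 CPM in MPM-1 libraries. Every MPM-1 library lay below every DMSO library, with MPM-1 replicate 1 lowest. The means were 31.1 ± 4.6 and 20.6 ± 5.09 CPM, 33.9% lower after MPM-1, with a log2 fold change of -0.60 (SE 0.18) that ran from -0.73 to -0.40 when 1 library at a time was left out, the smallest without MPM-1 replicate 1.

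CASP9 (ENSG00000132906; chr1:15490832-15526534, minus strand), the protease of the mitochondrial pathway, read 18.9, 14.8 and 12.9 CPM in DMSO libraries and 8.93, 11.5 and 10.3 CPM in MPM-1 libraries. The groups did not overlap, and DMSO replicate 1 stood highest. The means were 15.5 ± 3.1 and 10.2 ± 1.28 CPM, 34% lower after MPM-1, with a log2 fold change of -0.60 (SE 0.18) and a range of -0.72 to -0.43, the smallest without DMSO replicate 1. CASP8 and CASP9, at the heads of the death receptor and mitochondrial routes, thus had fold changes of the same size.

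CASP2 (ENSG00000106144; chr7:143288215-143307696, plus strand), an initiator activated when cells carry extra centrosomes, had the narrowest groups of the abundant members. It read 30.1, 32.7 and 30.6 CPM in DMSO libraries and 28.6, 24.9 and 28.3 CPM in MPM-1 libraries. The groups did not overlap, and the means of 31.1 ± 1.4 and 27.3 ± 2.02 CPM differed by 12.4%. The log2 fold change was -0.19 (SE 0.09), and it was -0.11 without MPM-1 replicate 2, the lowest library. It was -0.34 when scaled by library size alone and -0.30 to -0.35 in limma on log2 FPKM, so its size depended on the scaling.

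CASP10 (ENSG00000003400; chr2:201182881-201229406, plus strand), the CASP8 relative that also binds FADD, was the least abundant member in MPM-1 libraries by FPKM. It read 3.18, 3.17 and 3.04 CPM in DMSO libraries and 2.43, 3.48 and 1.55 CPM in MPM-1 libraries, from 52 to 107 counts. MPM-1 replicate 2 was above all DMSO libraries and the other MPM-1 libraries were below them, so the groups overlapped. The coefficient of variation was 2.59% among DMSO libraries and 38.9% among MPM-1 libraries. At 105, 137 and 121 counts in DMSO libraries, counting error alone is wider than 2.59%. Whether the spread differed between the groups was not tested. The log2 fold change was -0.33 (SE 0.30), -0.63 without MPM-1 replicate 2 and -0.07 without MPM-1 replicate 3, so single libraries set its size.

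The only effector among the members, CASP6 (ENSG00000138794; chr4:109688622-109703583, minus strand), which cuts nuclear lamins, read 9.19, 12.1 and 13.5 CPM in DMSO libraries and 8.63, 11 and 11.3 CPM in MPM-1 libraries. The groups overlapped, and replicate 1 was the lowest library of each. The means were 11.6 ± 2.18 and 10.3 ± 1.46 CPM with a log2 fold change of -0.17 (SE 0.18). That value was -0.31 without DMSO replicate 1, -0.05 without DMSO replicate 3 and -0.04 without MPM-1 replicate 1, and -0.32 when scaled by library size alone.

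Calls came from edgeR's quasi-likelihood test, adjusted by Benjamini-Hochberg over the 12982 genes, and required an adjusted p under 0.01 together with a log2 difference no smaller than 1 in either direction. By that rule 1 of the 7 members, CASP5, was called, and it was higher, where 5.58% of all genes were called higher and 8.75% lower. At an adjusted p under 0.05 without a fold limit, 2 members were higher (CASP4 and CASP5) and 2 lower (CASP8 and CASP9), where 27.7% of all genes were higher and 28.8% lower. Libraries of the groups did not overlap for 5 members, 2 higher and 3 lower, where 64.3% of all genes did not overlap in one direction or the other. These counts are from the contrast that chose the members, CASP5 has a row only through its MPM-1 counts, and nothing is read from them. The median log2 fold change of the 7 members was -0.19, beside -0.03 for all genes. Scaled by library size alone the median of all genes was -0.18, and relative to it CASP4 was at 0.54, CASP8 and CASP9 both at -0.57, CASP10 at -0.31, CASP2 at -0.17 and CASP6 at -0.14. No member changed direction under any of the scalings or tests tried.

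**Figure D2:**
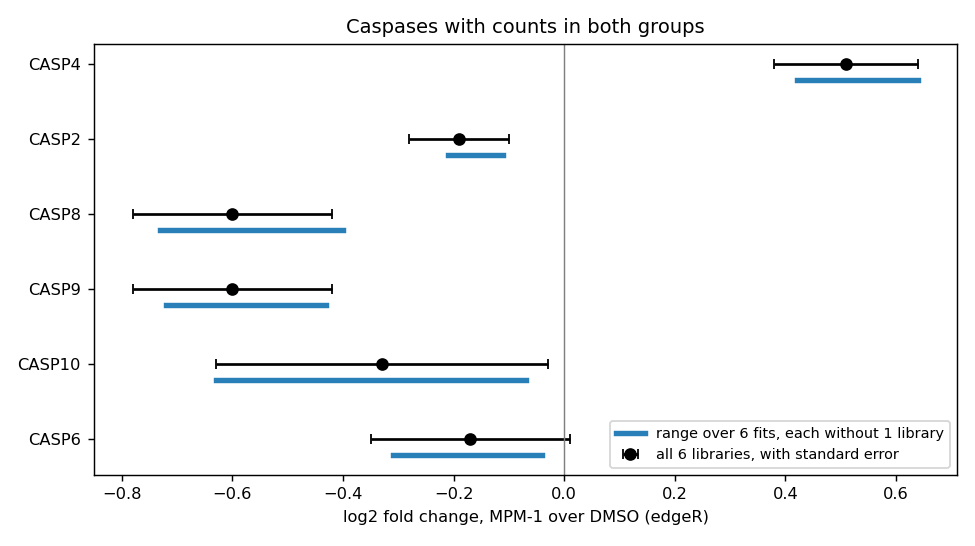
Log2 fold change (MPM-1 over DMSO, edgeR) of the 6 members with counts in both groups, with standard errors as black bars and, in blue, the range when each of the 6 libraries was left out. CASP4 is the only gene of these to the right of 0, CASP8 and CASP9 lie together at -0.60, and the blue range of CASP10 spans -0.63 to -0.07.

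Ordered by mean FPKM, the DMSO libraries read CASP4 (19.3), CASP8 (12.3), CASP6 (7.88), CASP2 (7.52), CASP9 (6.32), CASP10 (0.538) and CASP5 (0). The ranges of neighbours in this order overlapped only between CASP6 and CASP2 and between CASP2 and CASP9. In MPM-1 libraries the order was CASP4 (24), CASP8 (7.84), CASP6 (6.28), CASP2 (5.92), CASP9 (3.88), CASP5 (1.26) and CASP10 (0.418). There overlap was between CASP8 and CASP6 and between CASP6 and CASP2. The one exchange of places was thus between CASP5 and CASP10, the lowest pair. The summed FPKM of the 7 members was 47.7, 57.3 and 56.6 in DMSO libraries and 44.8, 54.9 and 49.1 in MPM-1 libraries, and the groups overlapped.

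Caspases resemble each other in sequence, and reads may be shared among them. Of the 1737 different runs of 50 bases in the 9 annotated transcripts of CASP5, 10 (0.576%) also occur in another gene, and that gene is CASP4. For the other measured members between 0% (CASP9) and 0.93% (CASP8) of such runs occur elsewhere. Exact runs do not show how reads with mismatches were assigned, and misassignment of reads between CASP4 and CASP5 was not tested. The ratio of count to FPKM, divided by the summed counts of the library, gives the length implied if the authors scaled by that sum. This was not stated, so the length serves to compare libraries and is not a measured transcript length. For CASP5 it was 1560, 1440 and 1550 bases in MPM-1 libraries, and the annotated transcripts have 535 to 1488 bases in GENCODE release 29. For CASP8 it was 2680 ± 100 bases in DMSO and 2490 ± 160 bases in MPM-1 libraries, a ratio of 0.929, within the 0.896 to 1.09 that holds the middle 90% of all genes. For CASP10 it was 5210 bases in MPM-1 replicate 2, its highest library, and 6110 to 6170 bases in the other 5. The groups overlapped in this length for every member with counts in both.

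RefSeq promoter windows were found for 6 members, in 10 windows, CASP10 and CASP1 not being among the matches. The CASP5 and CASP4 windows, from neighbouring genes, were 80.1% identical over 226 aligned base pairs. Both were poor in CpG, with 0 and 2, where 22.9% of all windows held 2 or fewer and the median was 11. Each precedes a RefSeq start, but they are not placed alike in GENCODE release 29. All 250 bases of the CASP4 window lie in an annotated CASP4 exon, whereas the CASP5 window lies just outside its gene. Both CASP9 windows, all but the first of CASP8 and the second of CASP2 also lie inside their genes. The first windows of CASP2 and CASP8 and the window of CASP6 cross the start of their gene. CASP4 was 38% G or C, and it held the NRF2 letters at -114 and the SP1 letters but neither the interferon, gamma-activated site nor C/EBP-ATF letters of CASP5. By contrast, the windows of CASP9 (77.6% and 71.6% G or C), CASP6 (74%) and the first of CASP2 (71.2%) held 25 to 29 CpG, those of CASP8 held 5 or 6, and the second of CASP2 held 2.

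Genes next to the members on the chromosome differed in both directions. CASP4 and CASP5 lie 24799 bases apart in one orientation, with CASP1 2275 bases beyond CASP5, and the nearest flanking genes of the table were far off. DCUN1D5, 1850651 bases from CASP4, had a log2 fold change of -0.05 (edgeR, adjusted p = 0.688), and MSANTD4, 972455 bases from CASP5, one of -0.14 (adjusted p = 0.478). On chromosome 2, CFLAR, CASP10 and CASP8 stand in a row on the plus strand. CFLAR, which encodes the FLIP inhibitor that occupies CASP8's place on FADD, lies 6194 bases before CASP10 and read 49.2, 40.5 and 40.4 CPM in DMSO libraries and 64.4, 55 and 58.7 CPM in MPM-1 libraries. It was higher in every MPM-1 library, by a log2 fold change of 0.45 (SE 0.10; adjusted p = 0.00426), under the fold limit of a call. CASP8, in the same cluster, was lower in every MPM-1 library, and TRAK2, 89496 bases further on, read 22.8 ± 1.65 and 24.8 ± 4.27 CPM (adjusted p = 0.452).

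TMEM139 ends 167 bases before CASP2 on the same strand and fell from 24.2 ± 2.99 to 12.1 ± 3.16 CPM, just past the fold limit (SE 0.18 on the log2 scale; edgeR, adjusted p = 0.00132). Its call was lost without any of DMSO replicates 2 (-0.95) and 3 (-0.95) and MPM-1 replicates 1 (-0.86) and 3 (-0.92). The gene after CASP2, the chloride channel CLCN1, was at 1.69 and 0.436 CPM (adjusted p = 0.039). DNAJC16 starts 279 bases from CASP9 on the opposite strand and read 13.2 ± 1.79 and 7.73 ± 1.66 CPM, a log2 fold change of -0.78 (adjusted p = 0.00647) in the direction of CASP9, whereas EFHD2 on the other side was at -0.05 (adjusted p = 0.671). CASP6 overlaps MCUB, a subunit of the mitochondrial calcium uniporter on the opposite strand, over 105 of its 1943 exon bases. MCUB read 28.8 ± 2.66 and 18.2 ± 1.49 CPM (log2 fold change -0.66, adjusted p = 0.000812), and since the counting is not stated to use strand, reads over the shared bases could belong to either gene. PLA2G12A, 6406 bases from CASP6, read 56 ± 5.68 and 112 ± 9.65 CPM (log2 fold change 1.00, just under the limit of a call, adjusted p = 3.11e-05). SEC24B, on the other side of CASP6, was at 0.55 (adjusted p = 0.0185). CASP9 overlaps CELA2B over 106 of its 5269 exon bases, and CELA2B was not analysed here.

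The genes with a pattern most like CASP5, by Pearson's r of log2 CPM over the 6 libraries, were VEZT (0.9995), NewGene_53 (0.9995), PCCA (0.9991), ATP2C2 (0.9991) and UGGT2 (0.9990). VEZT, an adherens junction protein, read 41.5 ± 0.738 and 86.9 ± 5.89 CPM. PCCA, a subunit of mitochondrial propionyl-CoA carboxylase, averaged 29.2 and 52.7 CPM. ATP2C2, a Golgi calcium pump, averaged 3.87 and 9.65 CPM, and UGGT2, an endoplasmic reticulum glucosyltransferase, 26.4 and 58.8 CPM. The points share their treatment groups, and 1675 of the other 12981 genes had an r of at least 0.95, so that likeness to CASP5 over 6 libraries was common.

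The partners of the caspases were taken as 9 lists, written from general knowledge with earlier results known, in which 88 of 110 genes had a row. Of these 88, 7 were called higher and 12 lower, with a median log2 fold change of 0.01, beside the 5.58% and 8.75% of all genes called in each direction. At an edgeR adjusted p under 0.05 without a fold limit, 27.7% of all genes were higher and 28.8% lower. By that limit 3 of 10 pyroptosis and IL-1 family genes were higher and 4 lower. The numbers were 1 and 0 of 2 CARD-only and serpin inhibitors, and 2 and 3 of 7 apoptosome genes. They were 1 and 2 of 6 inhibitors of apoptosis, and 4 and 5 of 11 transcription factors.

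Upstream of the inflammatory caspases, 13 of 21 inflammasome sensors and adaptors had a row, and 3 were called lower, with a median of -0.60. TXNIP, a thioredoxin-binding protein that also docks on NLRP3, fell from 143, 147 and 141 to 11.2, 10.2 and 7.68 CPM, by a log2 fold change of -3.89 (SE 0.13; edgeR, adjusted p = 1.09e-07), and the groups lay far apart. GBP2, an interferon-induced GTPase that coats cytosolic bacteria, fell from 4.93 ± 0.77 to 1.59 ± 0.459 CPM (log2 fold change -1.63, adjusted p = 0.000751). NOD2, the muramyl dipeptide sensor, fell from 1.66 ± 0.115 to 0.416 ± 0.202 CPM (-1.97, adjusted p = 0.00276), and it was no longer called without DMSO replicate 2. Among genes not called, PYCARD, the ASC adaptor, read 23.7 ± 3.9 and 14.8 ± 0.944 CPM (-0.68, adjusted p = 0.00237), and NEK7, the NLRP3 partner, read 43.2 ± 3.56 and 66.9 ± 5.93 CPM (0.63, adjusted p = 0.000422). At an adjusted p under 0.05 without a fold limit, 2 of the 13 were higher and 7 lower, where 27.7% of all genes were higher and 28.8% lower. DPP8, a protease that restrains CARD8, read 9.98 CPM in DMSO replicate 1 and 29.1 and 33.2 CPM in the other DMSO libraries, a spread wider than the distance between the groups.

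Downstream of them, 10 of 15 pyroptosis substrates and IL-1 family genes had a row, with 1 called higher, 2 lower and a median of -0.20. GSDMD, the pore protein that CASP4 and CASP5 cut, read 34.5, 38.1 and 43.4 CPM in DMSO libraries and 25.6, 32.5 and 31.2 CPM in MPM-1 libraries. It was lower without overlap but not called (log2 fold change -0.38, edgeR, adjusted p = 0.0227). The alarmin IL33 fell from 333, 389 and 399 to 71.5, 66.5 and 57.2 CPM, by a log2 fold change of -2.52 (SE 0.11; adjusted p = 4.70e-07), every MPM-1 library far below the DMSO libraries. The receptor IL1R1 fell from 7.07 ± 0.793 to 2.33 ± 0.462 CPM (-1.60, adjusted p = 0.000238). IL1A, a cytokine that CASP5 can cut, rose from 0.273, 0.509 and 0.803 to 1.12, 2.15 and 2.47 CPM, by 1.84 (SE 0.46; adjusted p = 0.00737). Its call was lost without any of DMSO replicates 1 (1.54) and 2 (1.80) and MPM-1 replicates 2 (1.77) and 3 (1.62). IL18, the cytokine matured by CASP1 and CASP4, read 47.1 ± 7.8 and 69.1 ± 2.21 CPM and was not called (0.55, adjusted p = 0.00235).

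Only 2 of 6 CARD-only and serpin inhibitors had a row, and their median was 0.53. SERPINB1, a neutrophil protease inhibitor that binds the CARD of inflammatory caspases, rose from 335, 319 and 347 to 668, 850 and 740 CPM, by a log2 fold change of 1.17 (SE 0.09; edgeR, adjusted p = 9.66e-06). SERPINB9, the granzyme B inhibitor, read 58.8 ± 8.08 and 54.1 ± 10.3 CPM (adjusted p = 0.5).

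Around CASP8 and CASP10, 19 of 22 genes of the death receptor complex had a row, with 2 called higher, 2 lower and a median of 0.35. TNFRSF10B, the TRAIL receptor DR5, rose from 151, 147 and 128 to 404, 306 and 333 CPM, by a log2 fold change of 1.29 (SE 0.11; edgeR, adjusted p = 1.68e-05). PEA15, a death effector domain protein that blocks FADD, rose from 50.2 ± 5.62 to 141 ± 30.1 CPM (1.49, adjusted p = 3.56e-05). FADD itself, the adaptor that recruits both proteases, fell from 59.2, 54.7 and 57.4 to 6.6, 29.1 and 13 CPM, by -1.82 (SE 0.40; adjusted p = 0.00357). Every MPM-1 library was under the DMSO libraries, but the MPM-1 libraries spread widely among themselves, with MPM-1 replicate 2 highest. That replicate was also the highest MPM-1 library for CASP4, CASP8, CASP9 and CASP10, but the lowest for CFLAR, CASP2 and CASP5. FADD was no longer called without MPM-1 replicate 3 (-1.67), DMSO replicate 1 (-1.79) or DMSO replicate 2 (-1.85). CASP8AP2, a nuclear protein that binds CASP8, fell from 10.6 ± 2.35 to 4.84 ± 0.413 CPM (-1.13, adjusted p = 0.000988), a call lost without DMSO replicate 2 (-0.93). RIPK1, the kinase cut by CASP8, read 21.4 ± 1.38 and 13.9 ± 3.11 CPM and was not called (-0.62, adjusted p = 0.00891). At an adjusted p under 0.05 without a fold limit, 9 of the 19 were higher and 3 lower, where 27.7% of all genes were higher and 28.8% lower. The 9 were FAS, TNFRSF1A, TNFRSF10B, TNFRSF21, CFLAR, TNFAIP3, DEDD, DEDD2 and PEA15, and the 3 were FADD, RIPK1 and CASP8AP2. The receptors TNFRSF10A (0.35, adjusted p = 0.119) and TNFRSF25 (-0.28, adjusted p = 0.16) did not pass.

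**Figure D3:**
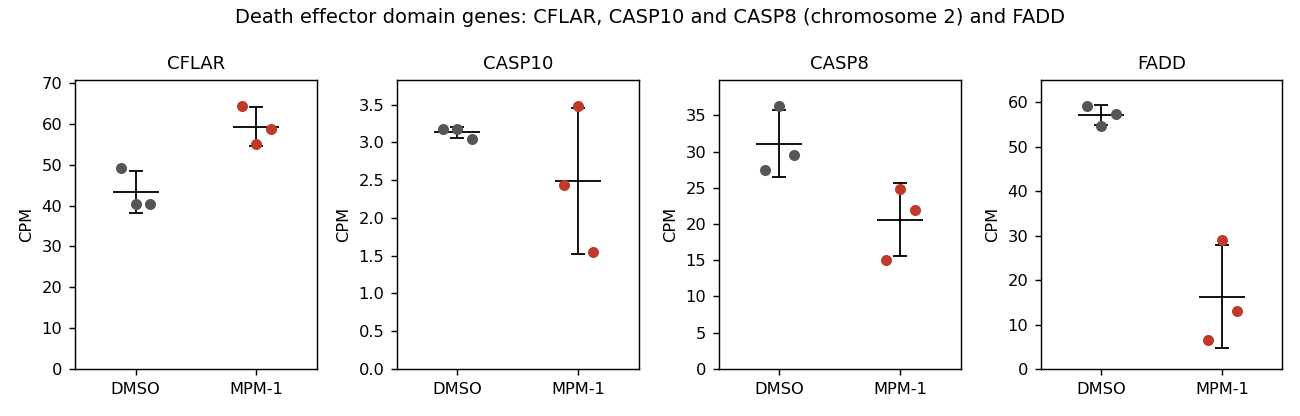
CPM of CFLAR, CASP10, CASP8 and FADD, genes of death effector domain proteins, in each library (3 DMSO in grey, 3 MPM-1 in red), with the mean as a line and the SD as bars, each axis from 0. CFLAR is higher in every MPM-1 library (55 to 64.4 against 40.4 to 49.2), and CASP8 and FADD are lower in every one. Replicate 2 is the highest MPM-1 library for CASP10, CASP8 and FADD and the lowest for CFLAR.

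Around CASP9, all 7 apoptosome and mitochondrial release genes had a row, with 1 called higher, 1 lower and a median of -0.14. APAF1, the scaffold that activates CASP9, read 24.9, 19.2 and 19.1 CPM in DMSO libraries and 5.45, 13.7 and 14.9 CPM in MPM-1 libraries. It was lower without overlap, MPM-1 replicate 1 lowest, and was not called (log2 fold change -0.89, edgeR, adjusted p = 0.0327). CYCS, cytochrome c, read 226 ± 1.24 and 205 ± 2.2 CPM (-0.14, adjusted p = 0.0977). ENDOG, a mitochondrial nuclease, fell from 42.7 ± 6.06 to 21.2 ± 3.38 CPM (-1.01, adjusted p = 0.000261), so near the fold limit that the call was lost without any of DMSO replicates 1 (-0.98) and 3 (-0.92) and MPM-1 replicates 1 (-0.90) and 3 (-0.96). AVEN, which binds APAF1 and holds it back, rose from 5.13 ± 0.645 to 11.2 ± 2.25 CPM (1.12, adjusted p = 0.000992), a call lost without MPM-1 replicate 1 (0.96).

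Of 8 inhibitors of apoptosis, 6 had a row, with 1 called higher, 1 lower and a median of 0.12. BIRC5, or survivin, which is made in dividing cells, fell from 111, 111 and 111 to 26.7, 32.1 and 26.8 CPM, by a log2 fold change of -1.96 (SE 0.09; edgeR, adjusted p = 5.66e-07). BIRC3, or cIAP2, rose from 2.5 ± 0.468 to 5.63 ± 1.3 CPM (1.17, adjusted p = 0.00343), a call lost without any of DMSO replicates 1 (1.03) and 2 (1.22) and MPM-1 replicates 2 (1.04) and 3 (1.15). XIAP, a direct inhibitor of CASP9, read 32.8 ± 3.49 and 36.1 ± 1.27 CPM (0.14, adjusted p = 0.258).

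For CASP2, all 5 PIDDosome genes had a row, and their median was -0.33. At an adjusted p under 0.05, 2 of them were lower by edgeR, where 28.8% of all genes were lower. The number was the same at an unadjusted p under 0.05, and none reached the fold limit by edgeR or DESeq2. In limma on log2 FPKM, 1 was called lower with a pseudocount of 0.1 or 0.01, and 0 with a pseudocount of 1. PIDD1, the platform that activates CASP2, read 23.7, 22.7 and 24.8 CPM in DMSO replicates and 13.1, 14 and 15 CPM in MPM-1 replicates, without overlap (log2 fold change -0.76, adjusted p = 0.000316). MDM2, which CASP2 cuts, read 92.1 ± 3.95 and 73.3 ± 2.18 CPM (-0.33, adjusted p = 0.00363).

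All 16 caspase substrates of apoptosis had a row, with 2 called lower and a median of -0.14. At an adjusted p under 0.05 without a fold limit 6 were higher and 6 lower, where 27.7% of all genes were higher and 28.8% lower. LMNB1, lamin B1 of the nuclear lamina, fell from 68.7, 82.5 and 71.2 to 12.1, 17.7 and 13.2 CPM, by a log2 fold change of -2.37 (SE 0.14; edgeR, adjusted p = 2.20e-06). PARP1, the DNA repair enzyme cut in apoptosis, fell from 139 ± 8.77 to 68.6 ± 4.12 CPM (-1.01, adjusted p = 1.03e-05), a call lost without DMSO replicate 2 (-0.97) or MPM-1 replicate 2 (-0.95). KRT18, the keratin whose caspase-cut form is a serum marker of epithelial death, read 1870 ± 112 and 3480 ± 129 CPM and stayed under the fold limit (0.89, adjusted p = 6.17e-06).

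Of 11 transcription factors known to act on caspase genes, all had a row, with 1 called higher, 1 lower and a median of 0.22. ETS1 rose from 1.76, 1.48 and 1.53 to 16.8, 12.8 and 15.2 CPM, by a log2 fold change of 3.23 (SE 0.19; edgeR, adjusted p = 1.81e-06), without overlap. IRF8, an interferon regulatory factor best known in myeloid cells, fell from 39.2, 40.5 and 36.5 to 14.9, 15.1 and 14.4 CPM, by -1.39 (SE 0.09; adjusted p = 3.31e-06). IRF1, an interferon-induced factor, read 6.48 ± 0.562 and 8.13 ± 1.62 CPM and was not called (0.33, adjusted p = 0.177). E2F1, a cell cycle factor, read 16.2 ± 1.74 and 8.94 ± 1.27 CPM (-0.86, adjusted p = 0.00127) and was not called.

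**Figure D4:**
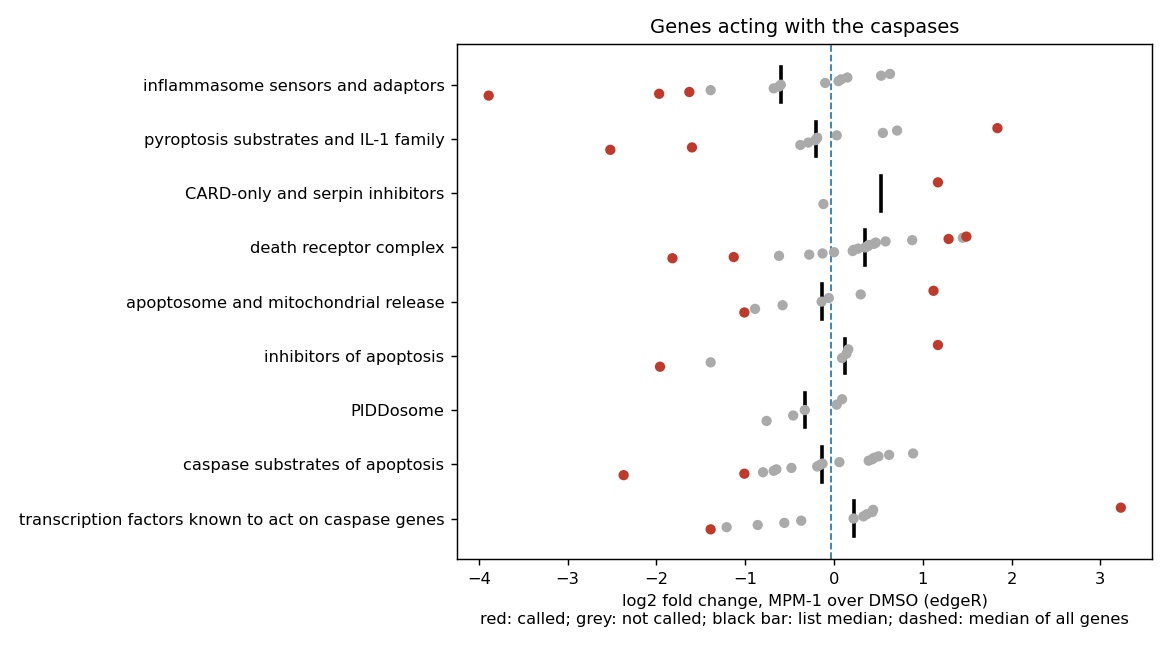
Log2 fold change (MPM-1 over DMSO, edgeR) of the genes with a row in each of the 9 lists, called genes in red and others in grey, with the list median as a black bar and the median of all genes (-0.03) as a dashed line. Red points lie on both sides of 0, from TXNIP at -3.89 to ETS1 at 3.23, and the list of inflammasome sensors and adaptors has the lowest median, -0.60.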

How the data were processed

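RNA sequencing libraries of SW480 cells, 3 DMSO and 3 MPM-1, were grouped by the treatment in the sample labels. The authors deposited 1 table with the count of each gene per library, whole numbers without normalization, and the deposited FPKM, fragments scaled by the authors for length and depth. Its log2 fold change and FDR columns, the authors' own comparison, were not used. The submitters' processing notes name HISAT2, DESeq2 and the mouse build mm10, although the gene identifiers are human, and the counting, the annotation and any filter on genes are not given in the sources used here. The lowest total count in the table was 115, and 855 of 12982 genes carry a NewGene identifier. Genes without a row were not analysed here. Coordinates are those of GENCODE release 29 (GRCh38), matched by identifier.

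CPM and tests used R 4.3.3 with edgeR 4.0.16 (TMM scaling, quasi-likelihood test, no covariates, Benjamini-Hochberg adjustment over 12982 genes). DESeq2 1.42.0 and limma 3.58.1 on log2(FPKM + pseudocount) were alternatives. The correlation with CASP5 used log2 CPM with a prior count of 2. The fit was tested on simulated data. Depth limits CASP5 most, with 194 counts in all. Replicate numbers did not pair the libraries. The members and lists were chosen with earlier results of these data known. Named genes were the members, the 3 largest rises and falls among called genes of each list, the 5 genes most correlated with CASP5 and the neighbours of members, and others (such as PYCARD, GSDMD, DPP8 and APAF1) were added after their values were seen. Some items are not reported here.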

Additional observations from a re-analysis of the deposited data

How the results depend on the processing

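CASP5 was the 1 member called, where 5.58% of all genes were called higher and 8.75% lower. It was chosen on these values, so nothing is read from its call. With a mean of at least 50 counts required, a filter that removes CASP5, 0 members were called. The same held, for the same reason, in limma on log2(FPKM + pseudocount) over genes whose mean FPKM reached 1. In limma over those genes, the genes called higher numbered 445, 351 and 454 with pseudocounts of 0.1, 1 and 0.01, against 725, and those called lower numbered 716 with a pseudocount of 1, against 1136. List genes called higher numbered 4 in all 4 limma fits, the fit over all genes included, against 7. Without a fold limit at an adjusted p under 0.05, 3596 genes (27.7%) were higher and 3740 (28.8%) lower, and 28 of the 88 list genes were higher and 31 lower. IL1R1 was at -0.98 and CASP8AP2 at -0.64 in limma with a pseudocount of 1, neither called, and ENDOG and PARP1 were both at -0.99 with DESeq2, as was TMEM139. CD14 was not called without DMSO replicate 2 or 3, nor CD68 without DMSO replicate 3. Of the genes called, 39% were higher, and 26.8% when scaled by library size alone, which lost the calls of AVEN (0.96), IL1A (1.68) and CD68 (0.94), and 27.1% in limma over all genes. With the replicate number as a block, 712 genes were called higher and 1120 lower, among them 7 and 12 list genes. Same-numbered libraries deviated together by correlations of 0.0214, 0.114 and -0.0737, so the numbers were not taken as pairs. No result reversed. Depth limits CASP5 and CASP10, whose libraries hold at most 85 and 137 counts.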
